A study of Mus musculus with 6 samples.

Results

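The cAMP pathway of the mouse testis was followed through its adenylyl cyclases, its cyclic nucleotide phosphodiesterases and protein kinase A. The members were all gene probes of the array whose gene name begins with Adcy or Pde and a digit, or is the name of 1 of the 6 main subunits of protein kinase A. They came to 93 probes for 42 gene names, of 41174 probes with 27376 gene names on the array. The rule itself uses names alone and no measured value. Testis RNA came from male mice 6 to 8 weeks old on a mixed 129Sv and C57BL/6 background. Of these, 3 were wild type (WT) and 3 were knocked out for Prss54 (Prss54KO), a gene of the serine protease family, with 1 array of 1 colour per mouse. The labels name neither the way the Prss54 allele was made nor the litters, so the p-values measure the spread between these 6 samples.

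Adenylyl cyclases make cAMP from ATP, phosphodiesterases cleave cAMP or cGMP, and cAMP frees the catalytic subunits of protein kinase A from its regulatory subunits. The membrane cyclases are driven by G proteins, while the soluble cyclase Adcy10 is driven by bicarbonate and calcium and is known for its place in sperm motility and capacitation. In the testis the same messenger carries the signal of the gonadotropins in Sertoli and Leydig cells, and protein kinase A is anchored along the sperm tail.

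The median processed signal of an array, the spot brightness after the scanner software's background treatment, lay between 203.1 and 219.7 intensity units. Between 66.2% and 74.8% of gene spots were well above background, and 0 were saturated. The arrays were spread over 3 slides: 1 carried WT replicates 1 and 2, 1 carried Prss54KO replicate 3 alone, and the remaining slide carried WT replicate 3 and the other two Prss54KO mice. Only that slide held both genotypes. The Prss54 probe, at 22700 to 26100 in WT and 7380 to 9470 in Prss54KO, was lower by a log2 difference of -1.56 (SE 0.10, limma's adjusted p 0.116). The labels do not name the deleted part of the gene, so this probe need not check the labels. Germ cell markers marked these samples as testis: all 12 genes of the spermatid list and all 10 of the meiotic spermatocyte list were measured above background. In whole tissue, fewer cells of a type and less RNA per cell cannot be told apart.

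Of the 93 probes, 63, for 35 genes, stood clear of background on 3 or more arrays and were tested. A further 20 were above background on no array. Of the genes, 7 had no probe tested: Adcy8, Pde3a, Pde6a, Pde6b, Pde6c, Pde7b and Pde8b. Levels below are log2 processed signals minus the 75th percentile of the array, and each difference is Prss54KO minus WT on that log2 scale with limma's moderated standard error. The printed signals are unscaled, while the order of the mice and any overlap refer to the scaled levels.

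At most of the probes tested, the measured differences between the genotypes were small, while those of Pde11a, given below, were unresolved. With limma, 0 of the 63 probes passed an adjusted p of 0.05, against 0% of all 28913 probes tested, and the adjusted p of every member was 1 after rounding. At an unadjusted p under 0.05, 0 members were higher in Prss54KO, against 1.76% of all probes, and 2 were lower, against 1.46%. Both of those were probes of Pde4d, a phosphodiesterase that cleaves cAMP. That count was 0 with the slide as a fixed block, where 4.38% of all probes had such a p in either direction. This fit compares the genotypes only within the slide that held both, where WT replicate 3 was the only WT mouse. The count was 4 without Prss54KO replicate 1 and 5 without Prss54KO replicate 2, beside 4.45% and 2.98% of all probes. All 3 Prss54KO mice lay above all 3 WT mice at 4 member probes, where 4.32% of all probes did so, and below them at 2, where 3.56% did so. For a single probe, 3 mice against 3 cannot give an exact permutation p below 0.1. The median difference of the members was 0.01, beside 0.007 for all probes tested, and 56 of the 63 (88.9%, against 89.6% of all probes) differed by less than 0.2. The mice within a genotype varied by a median SD of 0.10 at the members and 0.11 over all probes.

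**Figure D1:**
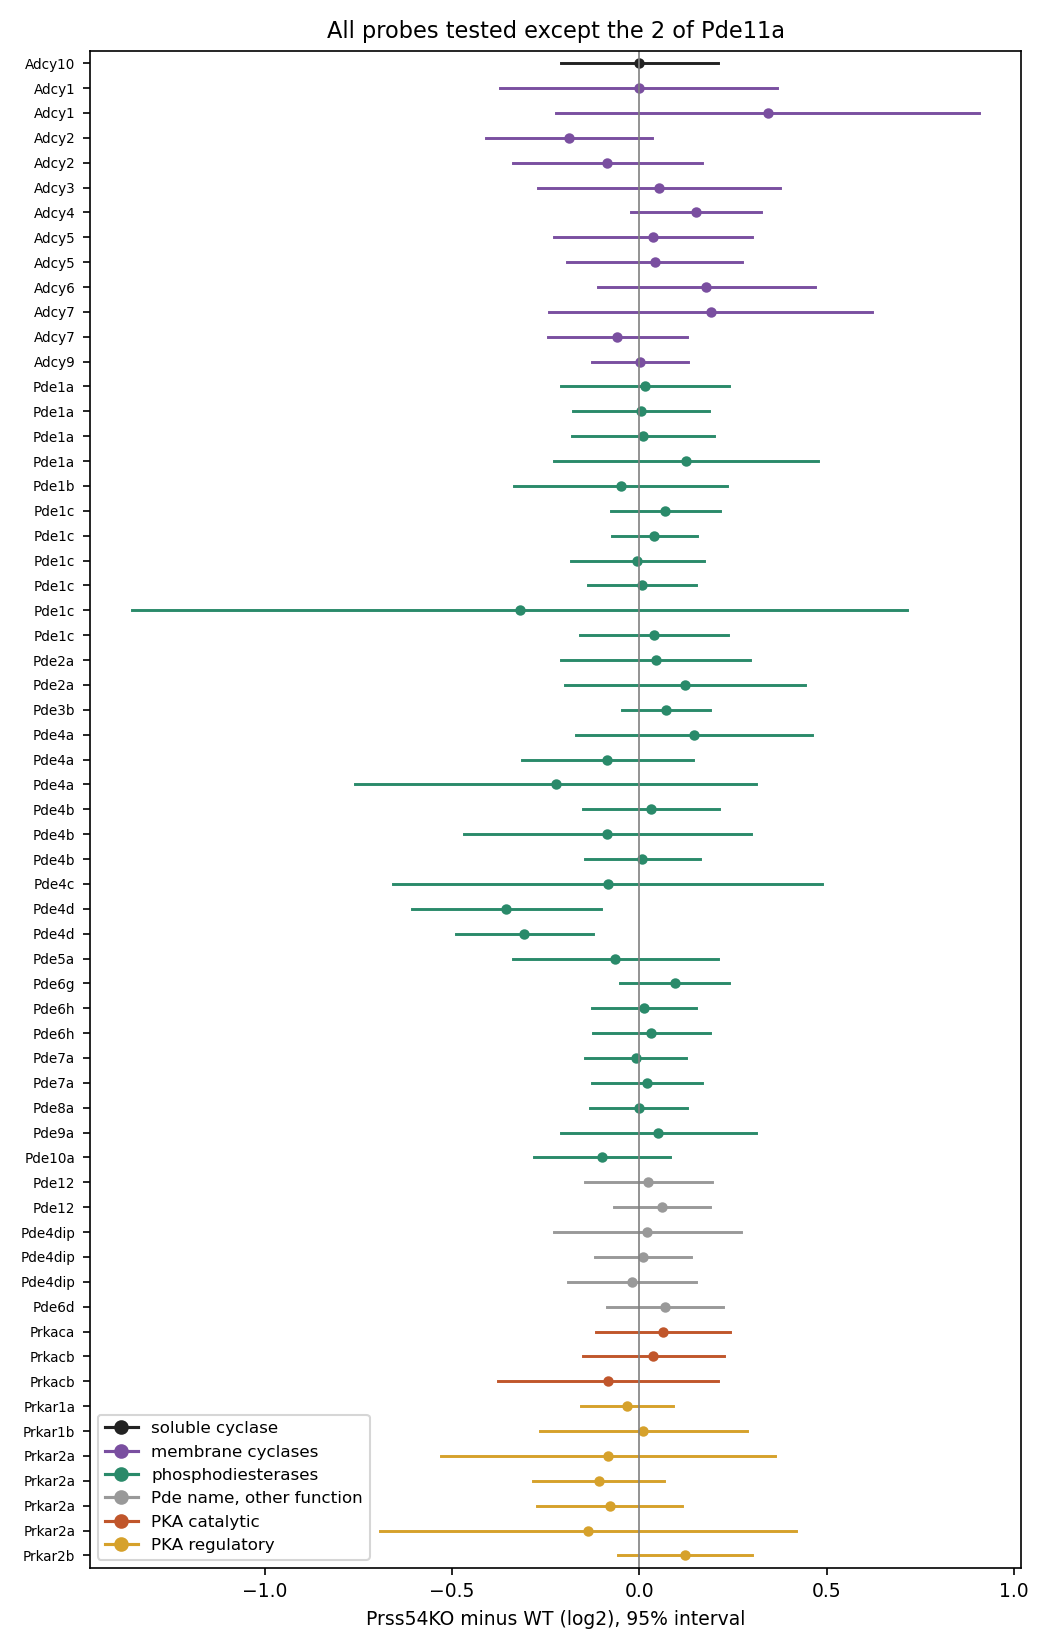
Differences between Prss54KO and WT (log2, points) with 95% intervals (lines) for 61 of the 63 probes tested, ordered and coloured by role; the 2 Pde11a probes, with much wider intervals, are shown apart. Only the intervals of the 2 Pde4d probes leave out 0.

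The soluble cyclase Adcy10 had a mean level of 5.15 in both genotypes. Its probe gave processed signals of 54888, 55016 and 64731 in WT and 63137, 61267 and 53726 in Prss54KO. The highest value was a WT mouse and the lowest a Prss54KO mouse, so the genotypes overlapped fully. The difference was 0.00 (SE 0.09, 95% interval -0.21 to 0.21).

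The membrane cyclases, 9 genes with 16 probes, had 12 probes tested for 8 genes. Their median difference was 0.04, with 8 probes above 0 and 4 below. Adcy4 showed the clearest order among them, with signals of 102.0, 117.1 and 120.6 in WT and 129.5, 126.4 and 128.1 in Prss54KO. All 3 Prss54KO mice lay above the WT mice, by 0.15 (SE 0.07, limma's unadjusted p 0.0765, adjusted p 1 after rounding). Adcy2, which the beta-gamma subunits of G proteins can stimulate, pointed the other way. Its brighter probe gave 217.7, 230.8 and 272.0 in WT and 212.1, 231.7 and 200.4 in Prss54KO. The genotypes overlapped, and the difference was -0.19 (SE 0.09), with -0.09 (SE 0.10) at the dimmer probe.

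Adcy6, a cyclase inhibited by calcium, gave 601.5, 566.6 and 643.8 in WT and 712.7, 582.1 and 815.8 in Prss54KO. After scaling, Prss54KO replicate 2 was the lowest of the 6 mice while the other two lay above all WT mice, and the difference of 0.18 had an SE of 0.12. Adcy3, best known from the cilia of olfactory neurons, was dim. Its signals were 39.1, 41.2 and 34.2 in WT and 40.1, 35.2 and 46.2 in Prss54KO, above background on 2 WT and 1 Prss54KO arrays, with a difference of 0.05 (SE 0.13). The calcium-stimulated Adcy1 had probes that parted. One gave 66.4, 65.0 and 71.7 in WT and 75.8, 53.4 and 81.0 in Prss54KO, a difference of -0.001 (SE 0.15) that became 0.18 without Prss54KO replicate 2. The other gave 38.8, 46.3 and 70.7 in WT and 57.1, 58.8 and 82.0 in Prss54KO, a difference of 0.34 (SE 0.23). In neither case did the genotypes separate.

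Adcy7 lies on chromosome 8 as Prss54 does, its probes 7.23 Mb away on the mm9 build. The brighter of them gave 1412, 1508 and 1507 in WT and 1339, 1550 and 1455 in Prss54KO. The order was mixed and the difference was -0.06 (SE 0.08), with 0.19 (SE 0.18) at the dimmer probe. Another probe, AK012436, is described in the files as Adcy7 but carries a clone name, and it differed by -0.04 (SE 0.21). The remaining tested cyclase probes, those of Adcy5 and Adcy9, differed by 0.002 to 0.04.

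Phosphodiesterases of family 1 are switched on by calcium and calmodulin and cleave both cAMP and cGMP. All 11 of their probes, for 3 genes, were tested, and the median difference was 0.01. The brightest Pde1a probe gave 15386, 15812 and 17056 in WT and 16921, 17422 and 15097 in Prss54KO. The extremes of both kinds were Prss54KO mice, and the difference was 0.004 (SE 0.08). Of the other 3 probes of Pde1a, 2 lay at 0.01 and 0.02, while the dim one was at 0.12 (SE 0.15). The 3 bright probes have the sequences below, shown because they name the stretches of the transcript on which the level of this gene rests. They are given 5′ to 3′ in the sense of the transcript with no base singled out. On mm9 they lie on the minus strand at chr2:79679145-79705240, chr2:79705818-79705877 and chr2:79708435-79715185. The first and the last span far more than their 60 bases and so cross at least 1 intron. Exon numbers are not analysed here.
Pde1a A_51_P327016: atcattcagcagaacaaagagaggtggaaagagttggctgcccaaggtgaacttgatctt
Pde1a A_52_P46102: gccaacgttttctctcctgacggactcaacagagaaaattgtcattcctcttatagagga
Pde1a A_51_P327011: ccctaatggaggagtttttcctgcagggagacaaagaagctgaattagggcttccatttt

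Pde1c, a relative of Pde1a, had 6 probes. The brightest gave 13695, 13428 and 14642 in WT and 14421, 14534 and 14830 in Prss54KO. On the normalized scale all 3 Prss54KO mice lay above the WT mice, but by only 0.04 (SE 0.05). The probe with the largest difference, A_52_P236937, gave 106.0, 152.2 and 82.1 in WT and 54.3, 85.2 and 156.6 in Prss54KO. After scaling its lowest mouse was Prss54KO replicate 1 and its highest WT replicate 2, and its difference of -0.32 had an SE of 0.43. The other 4 probes differed by -0.005 to 0.07. Pde1b differed by -0.05 (SE 0.12).

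Family 4 cleaves cAMP alone and holds the targets of rolipram. Its 4 genes had 9 of 13 probes tested, with a median difference of -0.09. Pde4d carried the lowest unadjusted p of all members. Probe A_51_P120990, at chr13:110743427-110743486 on the plus strand of mm9, gave 154.9, 152.1 and 132.9 in WT and 118.5, 123.0 and 109.3 in Prss54KO. Probe A_51_P290352, at chr13:110744875-110744934, gave 90.3, 78.2 and 90.1 in WT and 68.0, 75.6 and 69.5 in Prss54KO. At both, every Prss54KO mouse lay below every WT mouse. The first differed by -0.36 (SE 0.10), 0.782 of the WT level with a 95% interval of 0.657 to 0.931. The second differed by -0.31 (SE 0.08), 0.808 of the WT level with an interval of 0.712 to 0.918. Their limma p-values, 0.0135 and 0.00622 before adjustment, were 1 after it. Both probes read the same transcript and the same mice, so they are not separate evidence.

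The size at the first Pde4d probe changed with the mice compared. Within the slide that held both genotypes, with WT replicate 3 as its only WT mouse, the difference was -0.10 there and -0.29 at the second probe. WT replicate 3 was the lowest WT mouse at the first probe, so slide and mouse cannot be told apart. The other 2 probes named Pde4d were above background on 1 array in all and were not tested. AK083355, a clone that the files describe as Pde4d, gave 38.2, 38.7 and 34.2 in WT and 33.7, 22.6 and 30.9 in Prss54KO. It was above background on 3 WT arrays and 1 Prss54KO array, so WT alone met the filter. Its scaled levels overlapped, and its difference of -0.40 (SE 0.16) adds no support to the 2 Pde4d probes above. AK083355 was picked for its description and its values had been seen. Another probe that the files describe as Pde4d was above background on no array and was not tested. Of the marker lists, fibroblasts and matrix stood lowest in Prss54KO. All 7 of its tested genes, of 8, were below 0, with a median difference of -0.41, and 3 had an unadjusted p under 0.05, which 1.52% of all genes had in that direction. The scaled signals of that list, summed on a linear scale where the brightest genes weigh most, came to 29.6 to 37.7 in WT and 21.3 to 30.4 in Prss54KO. None of its 8 genes was at background on every array. Prss54KO replicate 2 had the lowest median of that list among the 3 Prss54KO mice, -0.825 from the WT mean. Its signal was the highest of the 3 at both tested probes named Pde4d, and the lowest of the 3 at AK083355. The part of those cells in the Pde4d values was not tested.

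**Figure D2:**
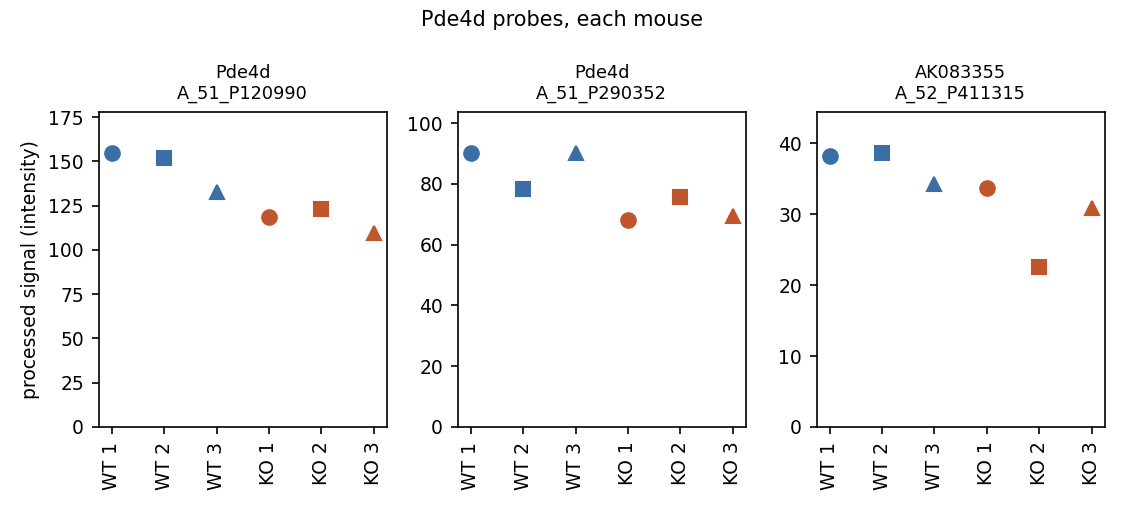
Processed signal (intensity, linear axis from 0) of each WT and Prss54KO (KO) mouse at both tested Pde4d probes and at AK083355. In the first 2 panels the Prss54KO mice, at 109.3 to 123.0 and 68.0 to 75.6, lie below all WT mice. At AK083355, where WT alone met the filter, WT replicate 3 at 34.2 and Prss54KO replicate 1 at 33.7 meet.

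The probes of Pde4a, another cleaver of cAMP, differed in sign. The brightest probe gave 5311, 5646 and 5921 in WT and 5184, 7075 and 6970 in Prss54KO. Prss54KO replicate 1 was the lowest of the 6 mice and the other two were the highest. The difference was 0.15 (SE 0.13), and 0.29 without Prss54KO replicate 1. The 2 dimmer probes had values below 0. One gave 154.4, 151.7 and 155.5 in WT and 129.2, 157.1 and 160.0 in Prss54KO, a difference of -0.09 (SE 0.09). The other, not well above background in 1 Prss54KO mouse, gave 55.1, 77.2 and 58.3 in WT and 42.0, 57.5 and 68.6 in Prss54KO, a difference of -0.22 (SE 0.22). At all 3, Prss54KO replicate 1 was the lowest mouse. Pde4b, known for its part in inflammatory cells, differed by -0.09 to 0.03 over 3 probes, and Pde4c, 24.8 Mb from Prss54 on chromosome 8, by -0.08 (SE 0.24).

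**Figure D3:**
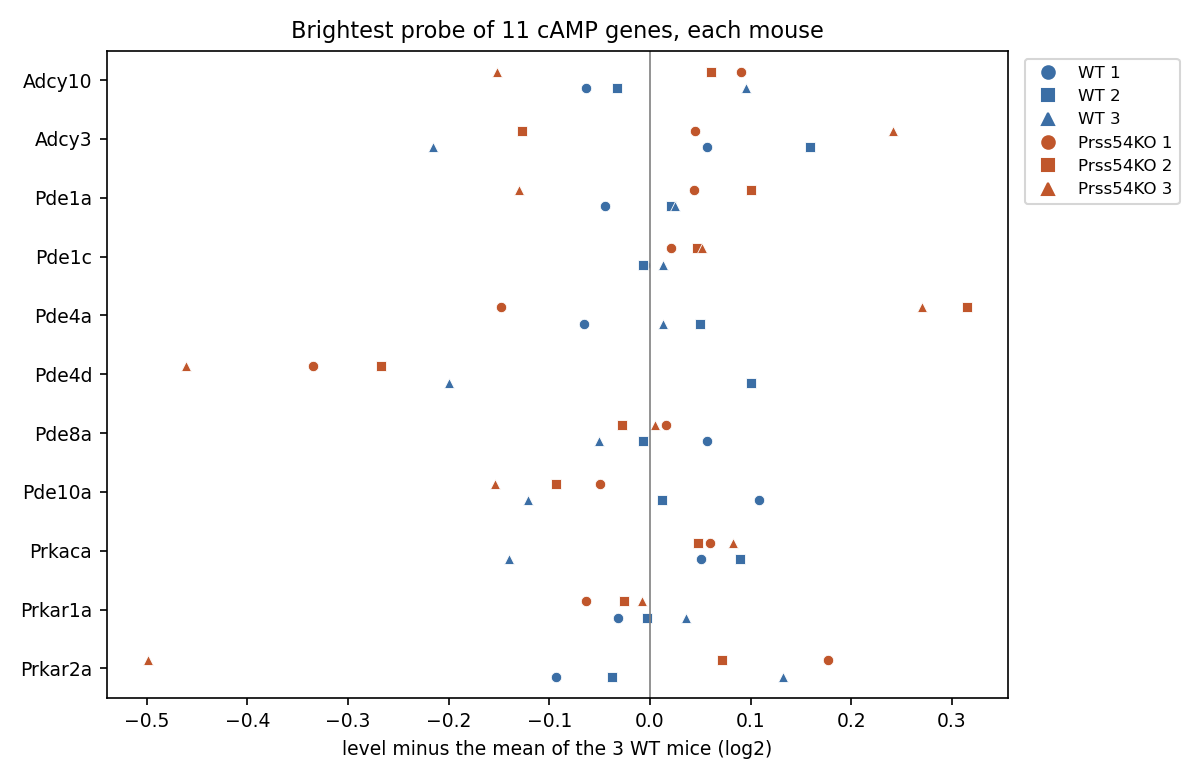
Level of each mouse minus the mean of the 3 WT mice (log2) at the brightest probe of 11 genes; marker shape gives the replicate and colour the genotype. Pde4d is the one of the 11 with all Prss54KO mice below all WT mice, Pde1c the one with all above, and at Prkar2a a single Prss54KO mouse lies far below the rest.

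Pde11a, which cleaves both cAMP and cGMP, varied more between mice than any other member tested, with high and low mice in both genotypes. Probe A_52_P573 gave 363.6, 343.5 and 52.0 in WT and 47.6, 356.4 and 59.8 in Prss54KO. Probe A_51_P246200 gave 223.4, 182.7 and 21.1 in WT and 39.1, 357.4 and 26.5 in Prss54KO. At both, WT replicates 1 and 2 and Prss54KO replicate 2 were high and the other 3 mice were low, with no mouse between. The levels spanned 2.98 and 4.13 on the log2 scale, where the median span was 0.28 for the members and for all probes alike. Of all 28913 probes tested, 85 spanned at least as much as the first and 28 at least as much as the second, and 4.5% spanned more than 1, as did 4 of the 63 members.

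The genotype difference at Pde11a was accordingly unresolved. It was -0.92 (SE 1.07, 95% interval -3.52 to 1.68) at the first probe and -0.44 (SE 1.31) at the second. On the slide with both genotypes the first turned to 1.36, where WT replicate 3 and Prss54KO replicate 1 were low and Prss54KO replicate 2 was high. High and low mice thus occurred on 1 slide. Both probes lie on the minus strand of mm9, at chr2:75869045-75884881 and chr2:75884916-75888235, and cross at least 1 intron each. Their sequences are shown because they are the 2 of the 4 Pde11a probes that gave a signal; the remaining ones, designed on other transcripts, were not above background in any mouse.
Pde11a A_52_P573: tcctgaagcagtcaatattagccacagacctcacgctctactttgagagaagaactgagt
Pde11a A_51_P246200: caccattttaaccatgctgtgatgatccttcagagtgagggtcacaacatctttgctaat

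The pattern was looked for after it had been seen, among the tested probes whose level spanned more than 1 on the log2 scale. Few of these probes shared it. Closest in its levels over the 6 arrays was Rbm45, an RNA-binding protein, 2 protein-coding genes from Pde11a in the RefSeq order (GRCm38.p6). Its probe gave 186.3, 172.4 and 29.1 in WT and 16.7, 175.8 and 25.4 in Prss54KO, with r of 0.99 to the first Pde11a probe over 6 arrays. This probe was above background on 3 arrays, the fewest that the filter allowed, so its r rests in part on values near background. Next was Mettl8, an RNA methyltransferase gene 44 protein-coding genes away, at 94.99, 87.75 and 48.3 in WT and 40.9, 93.4 and 38.0 in Prss54KO (r of 0.98). Pde1a, 20 protein-coding genes from Pde11a on the same chromosome, did not share it.

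**Figure D4:**
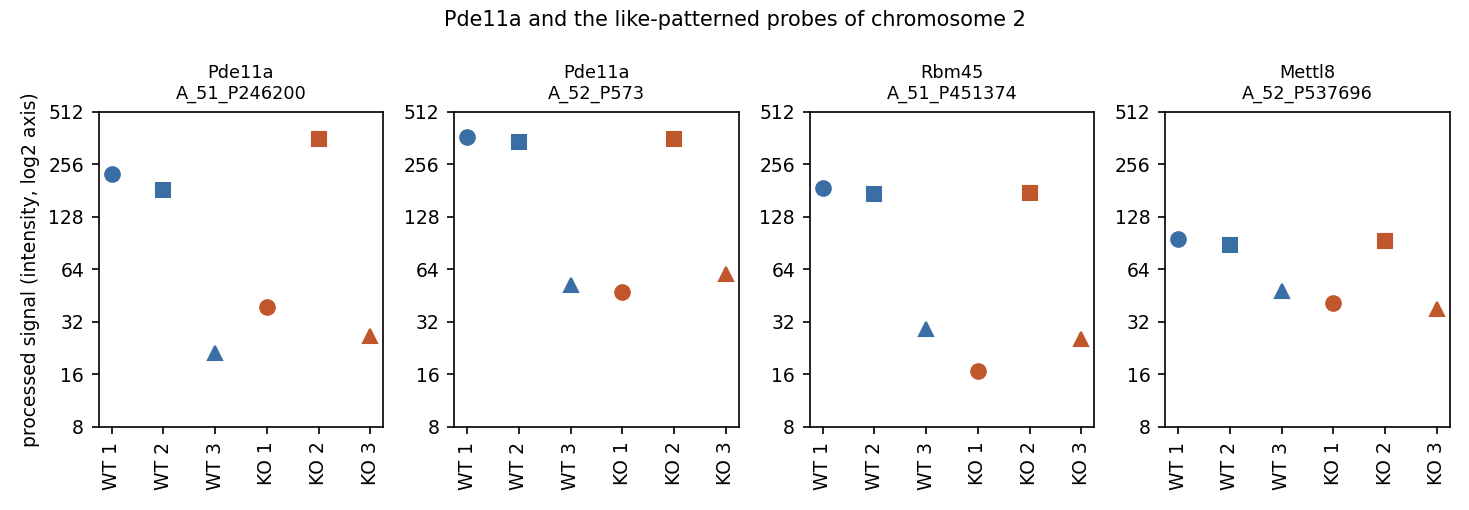
Processed signal (intensity, log2 axis) of each mouse at both measured Pde11a probes and at the probes of Rbm45 and Mettl8, also on chromosome 2. WT replicates 1 and 2 and Prss54KO replicate 2 are the 3 highest mice in every panel. The Rbm45 probe was above background on 3 arrays.

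The other phosphodiesterases lay near 0. Pde8a, which favours cAMP, gave 6266, 5887 and 6141 in WT and 6298, 6050 and 6293 in Prss54KO, a difference of -0.002 (SE 0.05). Pde10a, best known from the striatum, gave 6983, 6415 and 6291 in WT and 6469, 6221 and 6061 in Prss54KO. Its genotypes overlapped, with a difference of -0.10 (SE 0.08), and its second probe was above background in 1 WT mouse only, at 111.5. Pde3b, a target of insulin signalling in fat cells, gave 1391, 1373 and 1514 in WT and 1535, 1490 and 1561 in Prss54KO. Its levels did not overlap after scaling, by 0.07 (SE 0.05).

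Among the cGMP-specific forms, Pde5a, the target of sildenafil, differed by -0.06 (SE 0.11) and Pde9a by 0.05 (SE 0.11). Pde2a, which cGMP stimulates, differed by 0.04 and 0.12 at its 2 probes, and Pde7a by -0.01 and 0.02. The photoreceptor enzyme of family 6 was measured only through its inhibitory subunits. Pde6g, that of rods, gave 841.3, 798.0 and 914.3 in WT and 978.2, 889.5 and 912.6 in Prss54KO, without overlap after scaling, by 0.09 (SE 0.06). Pde6h, that of cones, differed by 0.01 and 0.03, and the catalytic Pde6a, Pde6b and Pde6c had no probe tested. Pde8b was above background in 1 mouse, with 20.9, 21.5 and 22.6 in WT and 19.002, 23.2 and 29.2 in Prss54KO at its brighter probe. Pde3a, the oocyte form of family 3, gave 89.0 in Prss54KO replicate 1 at 1 of its 3 probes and 5.2 to 8.8 in the other mice.

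Pde4dip, Pde12 and Pde6d bear a Pde name without cleaving cyclic nucleotides. Pde4dip, a scaffold protein of the centrosome and Golgi, differed by -0.02 to 0.02 at 3 tested probes. Its brightest gave 43702, 42259 and 47849 in WT and 47066, 44071 and 46229 in Prss54KO. The mitochondrial nuclease Pde12 differed by 0.02 and 0.06, and Pde6d, a carrier of prenylated proteins, by 0.07 (SE 0.06). None of these probes had an unadjusted p under 0.05.

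Protein kinase A was measured through all 6 subunits, and at none did the scaled levels of the genotypes lie apart. The catalytic subunit Prkaca, whose gene also gives a sperm-specific form, gave 22242, 22436 and 20586 in WT and 23139, 22729 and 23674 in Prss54KO. The unscaled signals lay apart, but after scaling WT replicate 2 was the highest mouse and WT replicate 3 the lowest. The difference of 0.06 (SE 0.07) became -0.007 without it. The gene lies on chromosome 8, 11.6 Mb from the Prss54 probe. The second catalytic subunit, Prkacb, differed by 0.04 and -0.08 at its 2 probes.

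Of the regulatory subunits, 7 probes for 4 genes were tested, with a median difference of -0.08. Prkar1a, the form that holds most kinase in the cytosol, gave 847.5, 849.3 and 938.4 in WT and 858.0, 871.7 and 897.5 in Prss54KO, a difference of -0.03 (SE 0.05). Prkar2b gave 2875, 2600 and 2641 in WT and 2850, 3097 and 3068 in Prss54KO. Prss54KO replicates 2 and 3 were above all WT mice and replicate 1 was not, with a difference of 0.12 (SE 0.07). Prkar1b differed by 0.01 (SE 0.11).

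Prkar2a, the subunit that docks on the anchor proteins of the sperm tail, had the same lowest mouse at each of its tested probes. Its brightest probe gave 12618, 12871 and 15577 in WT and 15728, 14489 and 9915 in Prss54KO. Prss54KO replicate 1 was the highest of the 6 and replicate 3 the lowest. The next probe, A_51_P409893, gave 1840, 1735 and 1823 in WT and 1710, 1819 and 1590 in Prss54KO. At the 3 probes measured on all 6 arrays, Prss54KO replicate 3 was the lowest mouse, and the differences ran from -0.11 to -0.08 with SE of 0.07 to 0.18. Without that mouse the brightest probe turned from -0.08 to 0.12, but A_51_P409893 and the dimmer A_52_P367583 stayed below 0, at -0.052 and -0.011. At A_51_P409893, Prss54KO replicate 1 also lay below all WT mice after scaling. The dimmest probe was above background on 3 WT and 0 Prss54KO arrays and passed the filter through WT alone. Its highest mouse and its lowest were both Prss54KO, at 53.2 and 28.2, and it supports no direction. In Prss54KO replicate 3 the median level of the 12 spermatid markers was -0.17 from the WT mean, the lowest of the 6, where the other 5 mice lay between -0.05 and 0.10. The part of spermatids in this value was not tested.

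**Figure D5:**
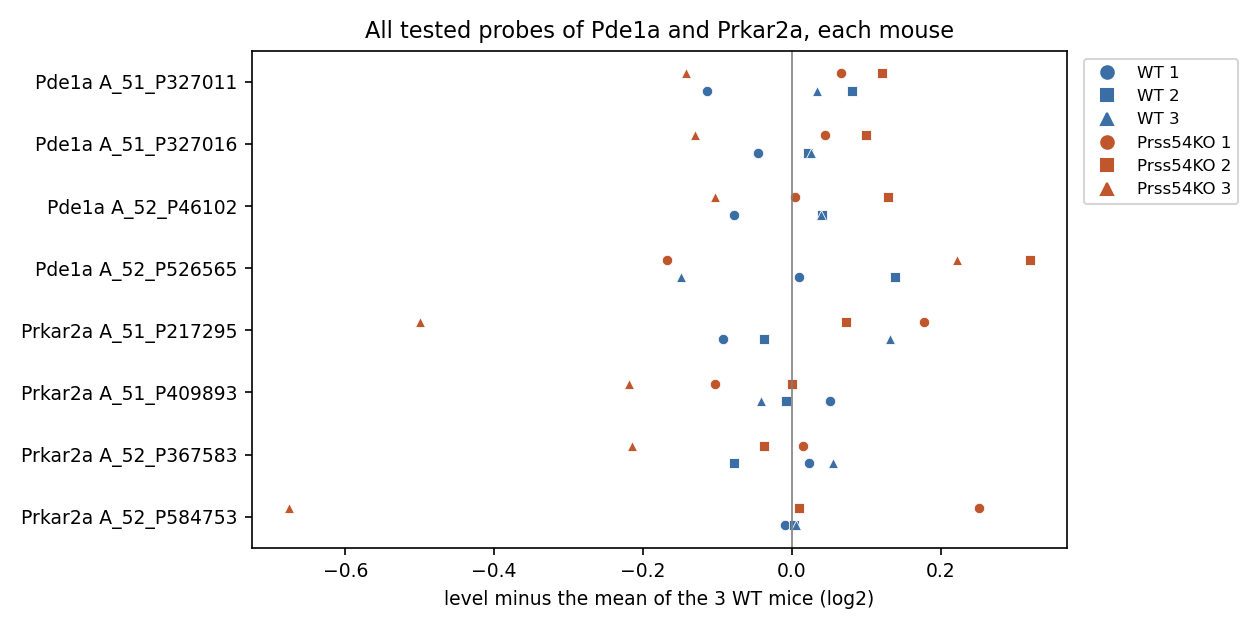
Level of each mouse minus the mean of the 3 WT mice (log2) at the 4 tested probes of Pde1a and the 4 of Prkar2a. Prss54KO replicate 3 (orange triangles) is the lowest mouse at the first 3 Pde1a probes and at every Prkar2a probe, although the last of these was above background in no Prss54KO mouse.

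Probes of 1 gene can be set side by side in their differences. Of 17 genes with at least 2 tested probes, the differences of the probes lay within 0.3 of each other in all but 4, Adcy1, Pde1c, Pde4a and Pde11a, and the median gap was 0.10. Since most differences were themselves under 0.2, such a gap does not test agreement. Over the 6 arrays the levels of 2 probes of a gene correlated at r from -0.856, at Pde4dip, to 0.965, at Pde11a, as a description. In each of the 4, at least 1 probe was dim or varied widely between mice, as the values above show. Dimness was not particular to them. Both Adcy5 probes were dim too, with mean WT signals of 68.1 and 46.5, and their gap was 0.004.

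The rest of the pathway was read from 9 lists of its genes, each gene at its brightest probe. Of 84 genes tested, 0 passed an adjusted p of 0.05 with limma. At an unadjusted p under 0.05, 2 were higher, against 1.75% of all 19389 genes, and 0 were lower, against 1.52%. The median difference was 0.004. Rapgef4, an exchange factor for Rap that cAMP switches on directly, had levels of -3.42, -3.42 and -3.93 in WT and -3.29, -3.18 and -2.93 in Prss54KO. The Prss54KO mice lay above the WT mice, by 0.46 (SE 0.17). Gucy1b2, a subunit of soluble guanylyl cyclase, had levels of -3.64, -3.68 and -3.30 in WT and -3.27, -3.27 and -3.22 in Prss54KO, a difference of 0.29 (SE 0.11).

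Upstream of the cyclases, the list of receptors and ligands had a median difference of -0.11 over 11 tested genes. Gipr, the receptor of an incretin hormone, differed by -0.32 (SE 0.14) and the follicle-stimulating hormone receptor Fshr by -0.15 (SE 0.10). The 8 alpha subunits of G proteins had a median of 0.005, with Gnao1 at -0.15 (SE 0.08) and Gnal at -0.19 (SE 0.12). Among the regulators of Adcy10 in sperm, which are ion exchangers, calcium channel subunits and carbonic anhydrases, 10 genes had a median of 0.02, with the sperm calcium channel gene Catsper2 at 0.15 (SE 0.10) and the anion exchanger gene Slc26a3, above background on 3 arrays, at -0.35 (SE 0.36). No gene of these 3 lists had an unadjusted p under 0.05.

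Downstream, the 15 anchor proteins of protein kinase A had a median of 0.02, with Akap6 at 0.14 (SE 0.09) and Akap11 at 0.14 (SE 0.10). The 6 docking and scaffold proteins of the sperm tail had a median of 0.009, with Fsip2 at 0.06 (SE 0.08) and Ropn1 at -0.07 (SE 0.10). For the 5 inhibitors and relatives of the kinase it was 0.02, with Prkx, a kinase encoded on the X chromosome, at 0.10 (SE 0.06) and the inhibitor Pkia at -0.11 (SE 0.09). The 14 transcription factors and coactivators that answer to cAMP had a median of -0.03, with Creb3l1 at 0.26 (SE 0.14) and Crtc2 at -0.08 (SE 0.07). The median was 0.03 for the 9 other effectors of cAMP and -0.01 for the 7 guanylyl cyclases and natriuretic peptide receptors.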

How the data were processed

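Per the labels' protocols, 0.5 ug of testis RNA per mouse was labelled with Cy3. The deposited scanner files, written by Agilent Feature Extraction 10.7.3.1 per the file headers (10.7 per the submitters' processing notes), hold spot intensity on a linear scale, marks for spots above background, saturated or outlying (other values in the deposited files), and mm9 positions. The deposited table of the series holds log2 values with a median of 7.72; its software is not named in the labels, and it served as an alternative.

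Outlier spots were left out, log2 processed signals were set against the array's 75th percentile, spots of 1 probe were averaged, and the 28913 probes that stood well above background on 3 or more arrays were tested. Genotypes were compared with limma 3.58.1 under R 4.3.3 (two-sided tests of lmFit with eBayes, Benjamini-Hochberg over all probes tested, threshold 0.05), after the code was tested on simulated data. Pathway and marker genes were matched by name, or by synonym in RefSeq.

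Single values are given for chosen genes of each role, the 5 probes per direction with the smallest unadjusted p, genes whose probes differ by over 0.3, and, per pathway list, genes at an unadjusted p under 0.05 or else the 2 with the smallest p. Members, lists and rules were chosen with earlier results of these data known. Alternatives changed scaling, background correction (normexp, offset 50), filter, probe summary, input, slide, pairing, variance model and replicates. Exons and untranslated regions were not analysed here.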

Additional observations from a re-analysis of the deposited data

How the results depend on the processing

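Under all 20 alternatives, 0 member probes passed an adjusted p of 0.05 in limma. In the main fit limma's smallest adjusted p of all probes tested was 0.116, so this count says little about the members. The count at an unadjusted p under 0.05 (2) was 5 of 93 with no filter on dim probes (4.07% of all probes). It was 1 of 35 with the brightest probe or the mean of the probes of a gene (3.31% and 3.32% of all genes). With the slide as a fixed block it was 0 (4.38%), but that fit compares the genotypes only within a slide that held 1 WT mouse. The count was 2 to 5 when 1 mouse was left out (2% to 6.21%). The 6 probes without overlap became 37 on the slide with both genotypes alone (59.1% of all probes) and 10 to 12 when 1 mouse was left out (12.7% to 23% of all probes), which follows from fewer mice. Replicate numbers did not pair the samples: same-numbered mice correlated at -0.044, 0.020 and -0.154 in their deviations, and with the replicate block 3 members had an unadjusted p under 0.05 (3.92% of all probes). The median difference ran from -0.010 to 0.036 over the alternatives. The Pde4d probes stayed below 0 in the 20 alternatives run for A_51_P120990 and the 19 run for A_51_P290352. Their size depended on the background treatment. With normexp they differed by -0.29 and -0.175, against -0.355 and -0.307 in the main fit. Adcy1 probe A_51_P196718, at -0.001, ran from -0.112 to 0.177 when 1 mouse was left out and turned at 0.177, without Prss54KO replicate 2 (the cause was not tested). Of 30 named probes, 19 changed sign somewhere, and only in that case did the value of turned sign have an unadjusted p under 0.05. With 3 mice per genotype, small differences and probes near background could not be resolved.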

Other observations

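Of the 1302 probes tested whose level spanned more than 1 on the log2 scale over the 6 arrays, 4 of genes other than Pde11a had r above 0.95 with the brighter Pde11a probe, and 0 had r below -0.95. They were chosen by that likeness, so their r is a description over 6 arrays and no test. On chromosome 2, as Pde11a is, were 3 of them, where 7.84% of all probes tested lie. Rbm45 and Mettl8 are described above; their probes lie at chr2:76218588-76221536 and chr2:70804518-70805113 of mm9. The third, AK086068, is a clone at chr2:135070408-135070467, far from the others. It gave 40.6, 55.3 and 22.5 in WT and 25.2, 54.5 and 25.6 in Prss54KO (r of 0.955). Ano5, a membrane protein of the anoctamin family on chromosome 7, gave 55.2, 50.8 and 25.1 in WT and 31.3, 55.8 and 34.9 in Prss54KO (r of 0.957). Both were dim, above background on 4 arrays each. Rbm45, Mettl8, AK086068 and Ano5 have 1 probe each on the array, so no second probe could be read for them.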
